A study of Mus musculus with 24 samples.

Results

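The genes described here encode the ligands and receptors of axon guidance, namely semaphorins, plexins, neuropilins, ephrins, Eph receptors, netrins, netrin receptors, Slits and Robo receptors. They were picked by gene symbol, in a choice made with earlier results of these data known. A probe set was taken when the array annotation gave it a single symbol that starts with Sema, Plxn, Epha, Ephb, Efna, Efnb or Robo, or that is one of Slit1 to Slit3, Ntn1, Ntn4, Dcc, Unc5a to Unc5d, Nrp1 and Nrp2. This found 150 probe sets of 67 genes among 18193 annotated symbols, and 87 probe sets of 48 genes reached a log2 value of 4 in at least 6 of the 24 arrays. Those 48 genes were 26 ligands and 22 receptors, and 38 of them reached that level in all 24 arrays.

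RNA came from the cerebral cortex, with the white matter dissected away, of male FVB mice at postnatal day 7, which were either wild type (WT) or Fmr1 null (Fmr1 KO). Fmr1 encodes FMRP, an RNA-binding protein found on polyribosomes whose loss causes fragile X syndrome. How the null allele was made is not given in the sources used here, and a single time point and sex were measured. Each genotype had 6 cytoplasmic lysates, each pooling 2 mice, and each lysate gave a total RNA array and a polyribosomal RNA array, so the 4 groups (WT total, WT polyribosomal, Fmr1 KO total, Fmr1 KO polyribosomal) held 6 arrays each. Polyribosomal RNA was taken from the sucrose gradient fractions with 6 or more ribosomes per mRNA. The polyribosomal minus total difference of a lysate is called its polyribosome difference below. It is a difference of log2 values between normalized arrays, so a negative one means a smaller share of the polyribosomal pool than of the cytoplasmic RNA, not an absolute loss.

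Growing axons steer by binding such ligands through receptors on the growth cone. Class 3 semaphorins are secreted and act through neuropilins with plexins, whereas the other vertebrate semaphorins are membrane proteins that bind plexins more directly. Ephrins bound to a cell surface activate Eph receptor tyrosine kinases on a neighbouring cell, netrins attract or repel through Dcc and the Unc5 receptors, and Slits repel through Robo receptors. In the postnatal cortex the same proteins take part in neuronal migration, dendrite growth and synapse formation.

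The arrays of a group correlated with each other at 0.991 to 0.998 over all probe sets. The brightest Fmr1 probe set read 9.41 to 10.27 in the 12 WT arrays and 5.41 to 6.62 in the 12 Fmr1 KO arrays, with no overlap. All 9 markers of excitatory cortical neurons on the array and all 8 of interneurons and 8 of astrocytes passed the level limit, as did 6 of 7 of the oligodendrocyte lineage, 4 of 7 of microglia, 3 of 8 of endothelium and pericytes, 4 of 10 of other brain regions and 2 of 8 of meninges and choroid plexus. The summed level of the last list, in log2, ran from 4.44 to 12.20 over the 24 arrays and varied within every group. Its part in the values below was not tested.

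Of the 67 genes, 19 stayed below the level limit and are not described further. They were the semaphorins Sema3b, Sema3f, Sema3g and Sema6c, the plexins Plxnb1 and Plxnb2, the ephrins Efna1 and Efna4, the Eph receptors Epha1, Epha2, Epha6, Epha8 and Ephb4, the Robo receptors Robo2, Robo3 and Robo4, Slit3, Unc5b, and Plxna4os1, an antisense transcript that shares the prefix. The member nearest the limit from above was Sema3d, which reached 4 in 6 arrays, all of them total RNA, followed by Plxnb3 with 16 arrays. Plxnb2, with 5 arrays, was nearest from below. A low reading here is a low reading of these probe sets and does not show that the gene is silent.

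The first question was how strongly guidance mRNAs were loaded on polyribosomes in WT cortex. The receptors Dcc and Nrp1 and the ligands Sema3a, Efna2 and Efna3 were lower in polyribosomal than in total RNA by 1.87-fold to 2.57-fold. Transmembrane semaphorins of class 4, with Sema7a and Ephb6, were higher by up to 1.51-fold. These folds are of the brightest probe set of each gene, and dimmer Nrp1 probe sets gave log2 differences of only -0.21 and -0.27. Of 47 members tested with limma (1 probe set per gene, lysate as a block, Benjamini-Hochberg adjustment over all probe sets, threshold 0.05), 16 were lower and 12 were higher. Over all genes tested 28.4% were lower and 37.5% were higher, 65.9% in all, against 28 of the 47 members. The members' median polyribosome difference was -0.07, against 0.09 for all genes. The arrays of the 2 RNA kinds did not overlap for 11 members, where 40.1% of all genes had no overlap, and 19 members did not pass the threshold.

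**Figure D1:**
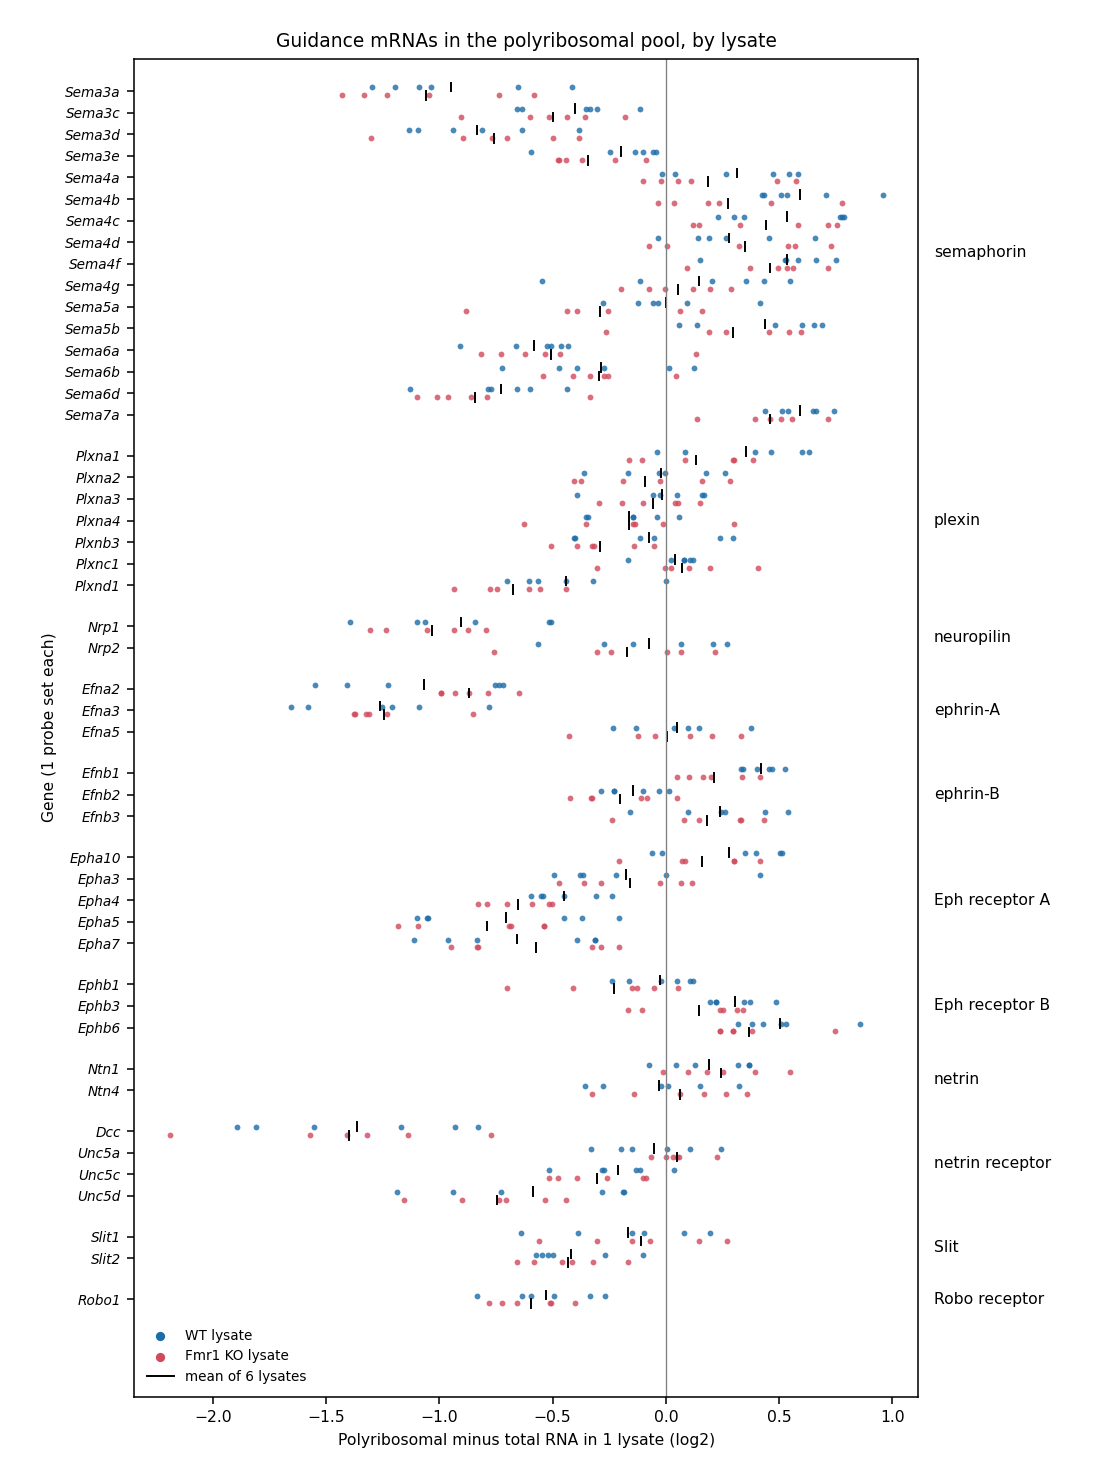
Polyribosomal minus total RNA (log2, x axis) in each of the 12 lysates for the 48 guidance genes, grouped by family (y axis); blue points are 6 WT lysates, red points 6 Fmr1 KO lysates, and black ticks their means. Dcc, Efna3, Efna2, Sema3a and Nrp1 lie farthest to the left with WT means of -1.36 to -0.90, the class 4 semaphorins and Sema7a lie to the right, and Sema3d is drawn although it was too dim to be tested between RNA kinds.

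Among semaphorins, the calls differed by structural class. Of the secreted class 3 ligands, Sema3a, a repellent of cortical axons, and Sema3c fell in WT, and Sema3e had a value of -0.20 that did not pass (limma adjusted p = 0.086). Sema3a read 6.39, 6.64 and 6.74 (lowest, median and highest log2 value of 6 arrays) in WT total RNA and 5.27, 5.61 and 6.18 in WT polyribosomal RNA. Every polyribosomal array was thus below every total array. The fitted difference was -0.95 (SE 0.12, limma adjusted p = 3.74e-05), a 1.93-fold lower level. Sema3c differed by -0.40 (SE 0.09, limma adjusted p = 0.00294), with overlapping arrays but a lower polyribosomal value in all 12 lysates of both genotypes. Sema3d passed the level limit through total RNA arrays alone, which fixes its direction. Its polyribosomal arrays reached at most 3.67, and it was not tested.

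Class 4 semaphorins are transmembrane ligands, several of which bind B-type plexins. Of 6 measured, 5 rose in WT, and the other, Sema4g, had a value of 0.15 that did not pass. Sema4b read 4.49, 4.64 and 4.76 in WT total RNA and 4.91, 5.18 and 5.64 in WT polyribosomal RNA, so the 2 sets of arrays were apart. Its difference was 0.59 (SE 0.09, limma adjusted p = 0.00019). Sema4c read 4.56, 4.84 and 5.22 in total and 4.96, 5.36 and 5.99 in polyribosomal RNA, with overlap, and its difference was 0.54 (SE 0.10, limma adjusted p = 0.000877). For Sema4f the total arrays stood at 9.53, 9.67 and 9.86 and the polyribosomal ones at 9.83, 10.19 and 10.44, overlapping at the ends only, with a difference of 0.53 (SE 0.09). That probe set, like the one used for Sema4a, is of the _x_at kind, which can cross-hybridise with other transcripts. Sema4a and Sema4d were higher by 0.31 and 0.28, and both calls were sensitive to leaving out 1 replicate. Sema4a no longer passed without replicate 2 (0.26), 3 (0.28) or 6 (0.27), and Sema4d no longer passed without replicate 1 (0.24), 2 (0.20) or 3 (0.28).

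Sema7a, a membrane-anchored semaphorin that binds integrins and Plxnc1, rose as well. It read 7.75, 8.03 and 8.13 in WT total RNA and 8.34, 8.56 and 8.88 in WT polyribosomal RNA. The lowest polyribosomal array lay above the highest total array, and the difference was 0.59 (SE 0.08, limma adjusted p = 7.01e-05). Of the class 5 ligands, which carry thrombospondin repeats, Sema5b rose by 0.44 (SE 0.11), whereas Sema5a had a difference of 0.00 (SE 0.10) with its brightest probe set. The other Sema5a probe set was lower, at -0.34 (SE 0.13, limma adjusted p = 0.0316) in WT and -0.66 (SE 0.10) in Fmr1 KO. The transmembrane class 6 ligands went the other way and all 3 were lower in WT, Sema6d by -0.73 (SE 0.10), Sema6a by -0.58 (SE 0.09) and Sema6b by -0.29 (SE 0.11, limma adjusted p = 0.0427). The Sema6b call did not hold without replicate 1 (-0.20), 2 (-0.27), 3 (-0.29) or 5 (-0.25). The Sema6a direction depended on the probe set, as given below.

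Plexins and neuropilins are the semaphorin receptors. Of 7 plexins tested, Plxnd1, the direct receptor of Sema3e, was lower at -0.44 (SE 0.10, limma adjusted p = 0.00266), and Plxna1 was higher at 0.36 (SE 0.11, limma adjusted p = 0.0115). The other 5 plexins had values from -0.16 (Plxna4) to 0.04 (Plxnc1) with their brightest probe sets and did not pass. Among their dimmer probe sets, 1 of Plxna3 (0.29, SE 0.09) and 1 of Plxnc1 were called higher in WT, and 1 of Plxna2 (-0.24, SE 0.09) was called lower. With its brightest probe set, Nrp1, the neuropilin that binds Sema3a, stood apart from Nrp2. Nrp1 read 7.15, 7.29 and 7.35 in WT total RNA and 5.80, 6.36 and 6.83 in WT polyribosomal RNA. The groups did not overlap, the polyribosomal arrays were the more scattered, and the difference was -0.90 (SE 0.12, limma adjusted p = 6e-05). The dimmer Nrp1 probe sets tested gave -0.21 and -0.27 in WT and did not pass. Nrp2 had a difference of -0.07 (SE 0.11) and was lower in 6 of the 12 lysates of both genotypes.

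The ephrin-A ligands, which are tethered to the membrane by a lipid anchor, included the lowest values of any ligand. Efna3 read 7.51, 7.73 and 8.12 in WT total RNA and 6.05, 6.55 and 6.91 in WT polyribosomal RNA, with no overlap. Its difference was -1.26 (SE 0.12, limma adjusted p = 3.55e-06), a 2.40-fold lower level. Efna2 read 5.16, 5.29 and 5.50 in total and 3.95, 4.24 and 4.60 in polyribosomal RNA, again apart, with a difference of -1.07 (SE 0.13, limma adjusted p = 2.4e-05). The polyribosomal readings of Efna2 lay close to the level limit. The third, Efna5, had a difference of 0.05 (SE 0.09).

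Of the 3 transmembrane ephrin-B ligands, 1 passed. Efnb1, whose gene is on the X chromosome, rose: it read 6.38, 6.68 and 6.79 in WT total RNA and 6.84, 7.02 and 7.25 in WT polyribosomal RNA. No array overlapped, and the difference was 0.42 (SE 0.08, limma adjusted p = 0.000596). Efnb2 at -0.14 and Efnb3 at 0.24 did not pass (limma adjusted p = 0.143 and 0.0563), although the second passed when each array was centred on its median (0.28) or quantile normalized (0.27). All 4 probe sets of Efnb2 were below 0, and 2 of them were lower in WT (down to -0.38) and 3 in Fmr1 KO (down to -0.38).

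The calls of the Eph receptors differed within each subfamily. Of the 5 EphA receptors, Epha5 (-0.70, SE 0.13), Epha7 (-0.66, SE 0.12) and Epha4 (-0.45, SE 0.08) were lower in WT with their brightest probe sets. The Epha4 and Epha7 calls depended on the probe set, as given below. Epha10, a receptor without kinase activity, was higher (0.28, SE 0.10). Epha3 had a value of -0.17 with its brightest probe set that did not pass. Another Epha3 probe set was lower, at -0.57 (SE 0.10, limma adjusted p = 0.000376) in WT and -0.62 (SE 0.11) in Fmr1 KO, and in 12 of 12 lysates. Its remaining probe sets, at -0.09 and -0.17 in WT, did not pass. The Epha10 call did not hold without replicate 1 (0.27), 2 (0.23), 5 (0.24) or 6 (0.26). Among the 3 EphB receptors, Ephb3 rose by 0.31 (SE 0.08, limma adjusted p = 0.00593), and Ephb1 had a value of -0.02. Ephb6, whose kinase domain is inactive, read 6.76, 7.08 and 7.23 in WT total RNA and 7.20, 7.57 and 7.95 in WT polyribosomal RNA. The arrays overlapped slightly, and the difference was 0.50 (SE 0.09, limma adjusted p = 0.000508), positive in 12 of 12 lysates.

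Dcc, the attractive netrin receptor, had the largest difference of any member. It read 7.47, 7.80 and 8.34 in WT total RNA and 5.82, 6.39 and 7.50 in WT polyribosomal RNA. The highest polyribosomal array just overlapped the total arrays, the 6 polyribosomal arrays had an SD of 0.57, and the difference was -1.36 (SE 0.14, limma adjusted p = 1.01e-05), a 2.57-fold lower level. Unc5d, one of the repulsive netrin receptors, was lower by -0.58 (SE 0.14), and Unc5c at -0.21 and Unc5a at -0.05 did not pass. Unc5c passed without replicate 3 (-0.26) or 4 (-0.23). The ligands Ntn1 (0.19) and Ntn4 (-0.03) did not pass in WT. In the Slit pathway both partners were lower, with Slit2 at -0.42 (SE 0.09, limma adjusted p = 0.00178) and Robo1 at -0.53 (SE 0.09, limma adjusted p = 0.000456). Slit1 had a value of -0.17 that did not pass.

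**Figure D2:**
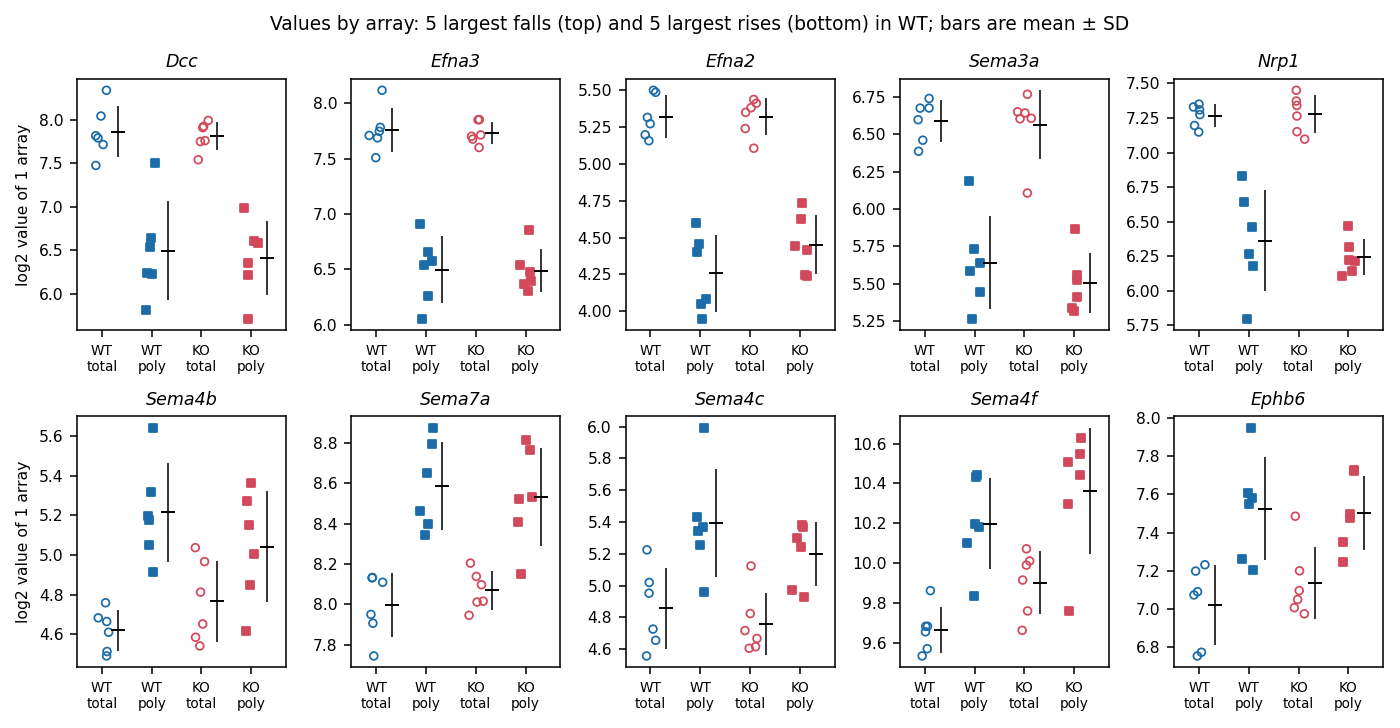
Deposited log2 value of each array (y axis, one scale per gene) for the 5 members with the largest called fall (upper row) and the 5 with the largest called rise (lower row) in WT; open circles are total RNA, filled squares polyribosomal RNA, blue WT, red Fmr1 KO, and bars are mean ± SD of 6 arrays. Each gene is shown by its brightest probe set. The Nrp1 total arrays sit between 7.10 and 7.45 in both genotypes, above all polyribosomal arrays, which reach 6.83 at most. The Sema4b arrays are apart in WT but overlap in Fmr1 KO.

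The same comparison in Fmr1 KO cortex gave a similar picture. Of 47 members tested, 19 were lower and 9 were higher (limma adjusted p, threshold 0.05), where 28.2% of all genes were lower and 38.7% were higher, 66.9% in all. The members' median polyribosome difference was -0.16, against 0.09 for all genes. Arrays did not overlap for 11 members, against 42.2% of all genes. The count of higher members was the less stable, at 5, 4 and 5 without replicates 2, 4 and 6, and Efnb1, Ntn1, Sema4b, Sema4d and Sema5b lay near the threshold. The count of lower members stayed at 19 to 21 without any one replicate.

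The 5 lowest members in WT were also the 5 lowest in Fmr1 KO. Dcc read 7.54, 7.83 and 7.99 in Fmr1 KO total RNA and 5.72, 6.47 and 6.99 in Fmr1 KO polyribosomal RNA, with no overlap, and its difference was -1.40 (SE 0.15, limma adjusted p = 8.1e-06). Efna3 read 7.60, 7.71 and 7.85 against 6.30, 6.43 and 6.85, a difference of -1.24 (SE 0.09). Sema3a read 6.11, 6.63 and 6.77 against 5.32, 5.47 and 5.87, a difference of -1.06 (SE 0.12). None of these 3 genes had overlapping arrays. Nrp1 (-1.03, SE 0.09) and Efna2 (-0.87, SE 0.08) were likewise apart.

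On the higher side, 8 of the 12 members called in WT were also called in Fmr1 KO. Sema7a read 7.95, 8.06 and 8.20 in total RNA and 8.15, 8.53 and 8.81 in polyribosomal RNA, now with overlap, and its difference was 0.46 (SE 0.09, limma adjusted p = 0.000706). Sema4f (0.46, SE 0.09), Sema4c (0.44, SE 0.10) and Ephb6 (0.37, SE 0.09) also rose. Sema4b read 4.54, 4.73 and 5.04 in total and 4.62, 5.08 and 5.36 in polyribosomal RNA, so the groups overlapped, and its difference of 0.28 (SE 0.11, limma adjusted p = 0.0411) no longer passed without replicate 2 (0.18), 4 (0.24), 5 (0.30) or 6 (0.29). Efnb1 (0.21, SE 0.08, limma adjusted p = 0.0372) no longer passed without replicate 2 (0.21), 3 (0.22), 4 (0.17) or 6 (0.19). Sema5b at 0.30 lost its call without replicate 2 (0.25), 3 (0.30), 4 (0.24) or 6 (0.27). Ntn1 at 0.24 did so without replicate 2 (0.21), 4 (0.18) or 6 (0.24), and Sema4d at 0.35 without replicate 1 (0.30) or 4 (0.27).

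Some members passed in a single genotype. Plxna1, Epha10, Ephb3 and Sema4a were called in WT only, with Fmr1 KO values of 0.13, 0.16, 0.15 and 0.18 in the same direction. Sema3e (-0.34), Unc5c (-0.31), Plxnb3 (-0.29) and Ntn1 (0.24) were called in Fmr1 KO only, with WT values of -0.20, -0.21, -0.07 and 0.19. Plxnb3 lay near the level limit in all groups. The difference between genotypes was tested for each of these 8 genes in the comparison of lysate differences, and none passed. Over the 47 members, 24 were called in the same direction in both genotypes (16 lower and 8 higher), which is 85.7% of the calls in each genotype, 0 were called in opposite directions and 15 in neither. The matching share over all genes was not computed, so this agreement is not shown to be particular to the members.

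**Figure D3:**
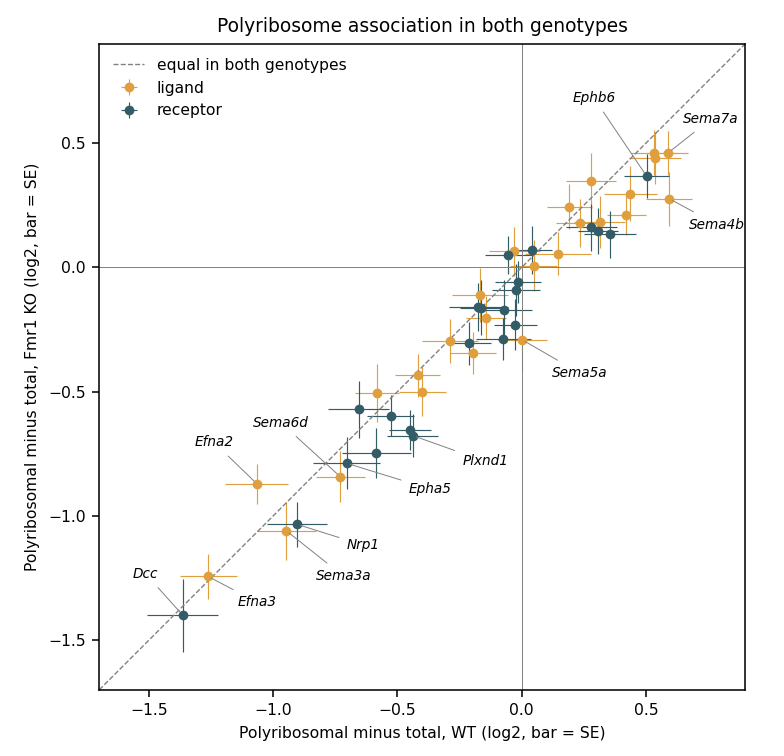
Polyribosome difference of 47 members in WT (x axis, log2) and in Fmr1 KO (y axis, log2), with SE bars from limma, ligands in orange and receptors in dark green; the dashed line marks equal values. The members lie along the line from Dcc at -1.36 and -1.40 to Sema7a at 0.59 and 0.46.

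The differences of WT and of Fmr1 KO lysates, which share no array, correlated across the 47 members at a Pearson r of 0.975. This describes members measured by the same probe sets on the same array type, which are not independent replicates. The correlation over all genes was not computed.

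Across lysates, 15 of the tested members were lower in polyribosomal RNA in all 12, among them Epha4, Epha5, Epha7, Plxnd1, Robo1, Slit2, Unc5d and Sema6d besides those above, and 5 were higher in all 12 (Ephb6, Efnb1, Sema4c, Sema4f and Sema7a). The share of all genes with the same direction in all 12 lysates was not computed. Of the ligands, 8 of 25 tested were higher and 8 lower in WT, with a median of 0.00. Of the 22 receptors, 4 (18.2%) were higher and 8 (36.4%) lower, with a median of -0.12. Over all genes 37.5% were higher and 28.4% lower in WT. In Fmr1 KO the corresponding counts were 8 higher and 9 lower ligands, and 1 higher and 10 lower receptors, where 38.7% of all genes were higher and 28.2% lower.

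Known ligand and receptor partners can be read side by side. Sema3a and Nrp1 were both lower with their brightest probe sets, at -0.95 and -0.90 in WT and -1.06 and -1.03 in Fmr1 KO. The dimmer Nrp1 probe sets gave -0.21 and -0.27 in WT and did not pass there. Slit2 and Robo1 were both lower, at -0.42 and -0.53 in WT and -0.43 and -0.60 in Fmr1 KO. Ntn1 and its receptor Dcc differed, at 0.19 and -1.36 in WT. Sema7a stood at 0.59 in WT, and the 4 probe sets of its receptor Plxnc1 ran from 0.04 to 0.48. No test of these pairs was made.

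A gene's probe sets did not always give one answer. Of 20 members with more than 1 probe set tested in WT, 8 had polyribosome differences that spanned more than 0.5 and 3 spanned less than 0.2. Sema6a had calls in both directions in both genotypes: its brighter probe set gave -0.58 (SE 0.09) in WT and -0.51 (SE 0.12) in Fmr1 KO, and the other gave 0.54 (SE 0.09) and 0.63 (SE 0.10). The second probe set was higher in polyribosomal RNA in 12 of 12 lysates, and the first was lower in 11 of 12. With the mean of both, the values were -0.02 in WT and 0.06 in Fmr1 KO, and neither passed.

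Epha4, a receptor that binds both ephrin classes, had calls in both directions in Fmr1 KO. Its brightest probe set gave -0.45 in WT and -0.65 in Fmr1 KO, and was lower in 12 of 12 lysates. The other 4 ran from -0.15 to 0.26 in WT, none past the threshold, and 1 of them was higher in Fmr1 KO (0.28, SE 0.09, limma adjusted p = 0.016). With the mean of its probe sets, Epha4 had values of -0.01 and -0.07 and no call in either genotype.

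Epha5 was lower with each of its 4 probe sets, but by very different amounts. Its brightest gave -0.70 in WT and -0.79 in Fmr1 KO, and 2 dimmer ones gave -2.27 and -1.71 in WT and -2.30 and -1.96 in Fmr1 KO, with a negative value in every lysate. The fourth gave -0.37 in WT, with 11 of 12 lysates lower. For Nrp1 the brightest probe set gave -0.90 in WT and the other 2 gave -0.21 and -0.27, which did not pass. Epha7 had 2 probe sets at -0.66 and -0.84 and 2 at -0.06 and -0.17 in WT. Sema3e had 1 at -0.87 (SE 0.16) that passed in WT, against -0.20 and -0.06 for the others.

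Some other genes had calls in a single direction with all their tested probe sets in WT, though not always of the same size. Dcc was lower with both (-1.36 and -0.84 in WT), as were Efna3 (-1.26 and -0.59), Sema3a (-0.95 and -0.74), Sema6d (-0.73 and -0.47) and Robo1 (-0.53 and -0.62). Efnb1 was higher with all 3 (0.42, 0.44 and 0.30), Sema7a with both (0.59 and 0.34) and Sema4a with both (0.31 and 0.31). Which part of a transcript each probe set reads was not analysed here.

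**Figure D4:**
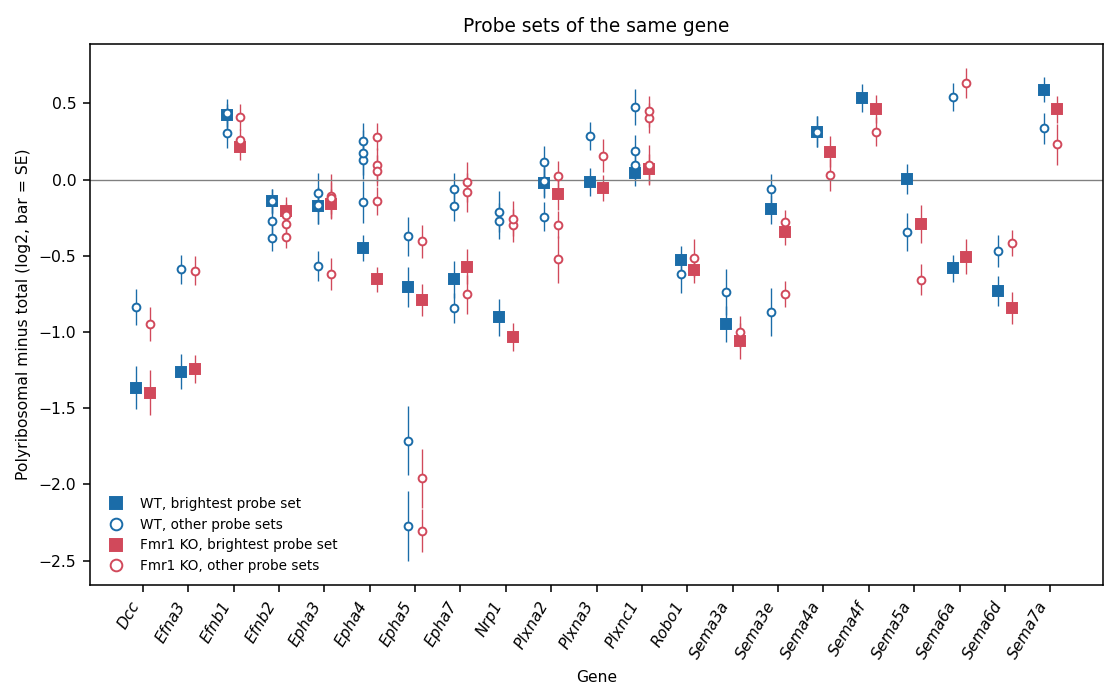
Polyribosome difference (log2, y axis, bars are SE) of every tested probe set of the 21 members with more than 1 probe set past the level limit (x axis), WT in blue and Fmr1 KO in red, the brightest probe set of a gene as a filled square and the others as open circles. The 2 probe sets of Sema6a lie on opposite sides of 0 at -0.58 and 0.54 in WT, and those of Epha5 span -0.37 to -2.27.

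The second question was whether loss of Fmr1 changed guidance mRNAs on polyribosomes. No member was called in polyribosomal RNA: 0 of 46 tested passed (limma, adjusted p threshold 0.05), and 1 had an unadjusted p under 0.05. Over all genes 0.0103% were called and 2.22% had such a p. Fmr1 KO minus WT differences of the members, with 1 probe set each, ran from -0.42 to 0.19. Their median was -0.07 against 0.01 for all genes, and 34 of 46 were below 0. The 4 probe sets of Plxna2 gave -0.21 (the brightest), -0.16, -0.26 and -0.68 (SE 0.20), none past the threshold. No member had groups of arrays apart, against 0.103% of all genes. In whole cortex, fewer cells of a type and less RNA per cell cannot be told apart. The median half-width of the members' 95% confidence intervals was 0.29, so smaller differences of a member were not resolved. These intervals are not adjusted over probe sets, and a call needed a difference beyond the half-width of its own interval. In simulated arrays with the spreads of these groups, 0% of changes of 0.25 and 27.5% of changes of 0.5 were called. These changes were made in 200 probe sets at once, all well above the level limit. Dimmer members were not represented, so the shares are not recovery rates of the members. The 0 calls do not show that differences larger than 0.29 were absent.

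The 3 members with the smallest p were Sema5a, Plxnd1 and Sema3e. Sema5a read 7.34, 7.77 and 8.09 in WT polyribosomal RNA and 6.63, 7.41 and 7.82 in Fmr1 KO polyribosomal RNA. The groups overlapped, although each Fmr1 KO array was below the WT array of its replicate number. The labels do not tie equal numbers to pairs, and the gene was picked for its small p. Its difference was -0.42 (SE 0.20, unadjusted p = 0.0494, limma adjusted p = 1), and its second probe set gave -0.44 (SE 0.20). Plxnd1 read 7.33, 7.76 and 8.18 in WT and 7.13, 7.54 and 7.73 in Fmr1 KO, overlapping, a difference of -0.26 (SE 0.14). Its partner Sema3e read 6.56, 6.63 and 7.21 in WT and 5.78, 6.50 and 6.86 in Fmr1 KO, again overlapping. The Sema3e difference was -0.28 (SE 0.17), and its other 2 probe sets gave -0.30 (SE 0.17) and -0.30 (SE 0.11). In all 3 genes the lowest Fmr1 KO array was replicate 5, at 6.63, 7.13 and 5.78. That array also had the lowest mean correlation with its group, at 0.9934. Without replicate 5 in both genotypes, 1 member had an unadjusted limma p under 0.05 and 0 were called. The part of this array in the members' values was not tested.

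By family, polyribosomal values below 0 were found in 11 of 15 semaphorins, 5 of 6 plexins, both neuropilins, all 3 EphB receptors and all 3 ephrin-B ligands, and values above 0 in both netrins and 2 of 3 ephrin-A ligands. None of these passed. In receptors 18 of 21 values were below 0, with a median of -0.12, and in ligands 16 of 25, with a median of -0.04. Over all genes 4466 of 9664 values, or 46.2%, were below 0. Marker lists of other cells also held mostly values below 0 in the same contrast, with 0 calls. These were 7 of 8 astrocyte markers (median -0.15), 6 of 6 of the oligodendrocyte lineage (median -0.10), 3 of 3 of microglia (median -0.04) and 2 of 2 of meninges and choroid plexus (-2.35 and -0.26). Of excitatory neuron markers 2 of 9 were below 0, of interneuron markers 5 of 8, of endothelial and pericyte markers 1 of 3 and of other brain regions 3 of 4. The astrocyte markers' summed level ran from 12.56 to 13.36 in WT and from 12.49 to 13.25 in Fmr1 KO polyribosomal RNA. The part of these cells in the members' values was not tested.

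In total RNA, no member was called among 48 tested, and 2 had an unadjusted p under 0.05, against 0.0413% called and 5.05% with such a p over all genes. With the replicate number as a block, although the labels do not tie the numbers to pairs of lysates, 6 members had such a p and again 0 were called. The members' median difference was 0.01, against -0.01 for all genes, and 26 of 48 were above 0, against 4318 of 9691 for all genes. No member's arrays were apart, against 0.320% of all genes, and the median half-width of the intervals was 0.19, again without adjustment over probe sets.

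Sema4f had the smallest p in total RNA. It read 9.53, 9.67 and 9.86 in WT and 9.66, 9.95 and 10.07 in Fmr1 KO, overlapping, with a higher Fmr1 KO array in 6 of 6 replicate numbers. Its difference was 0.24 (SE 0.08, unadjusted p = 0.00946, limma adjusted p = 0.894). Efna5, an ephrin that patterns cortical connections, read 5.55, 5.83 and 5.89 in WT and 5.73, 5.95 and 6.11 in Fmr1 KO, a difference of 0.17 (SE 0.07, unadjusted p = 0.0426, limma adjusted p = 0.982). Slit2 read 7.33, 7.49 and 7.80 in WT and 7.03, 7.33 and 7.61 in Fmr1 KO, a difference of -0.21 (SE 0.10). These groups overlapped as well, and Slit2 was lower in 6 of 6 replicate numbers. Equal numbers are not tied to pairs by the labels, and these genes were picked for their small p. The share of all genes with such agreement was not computed.

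**Figure D5:**
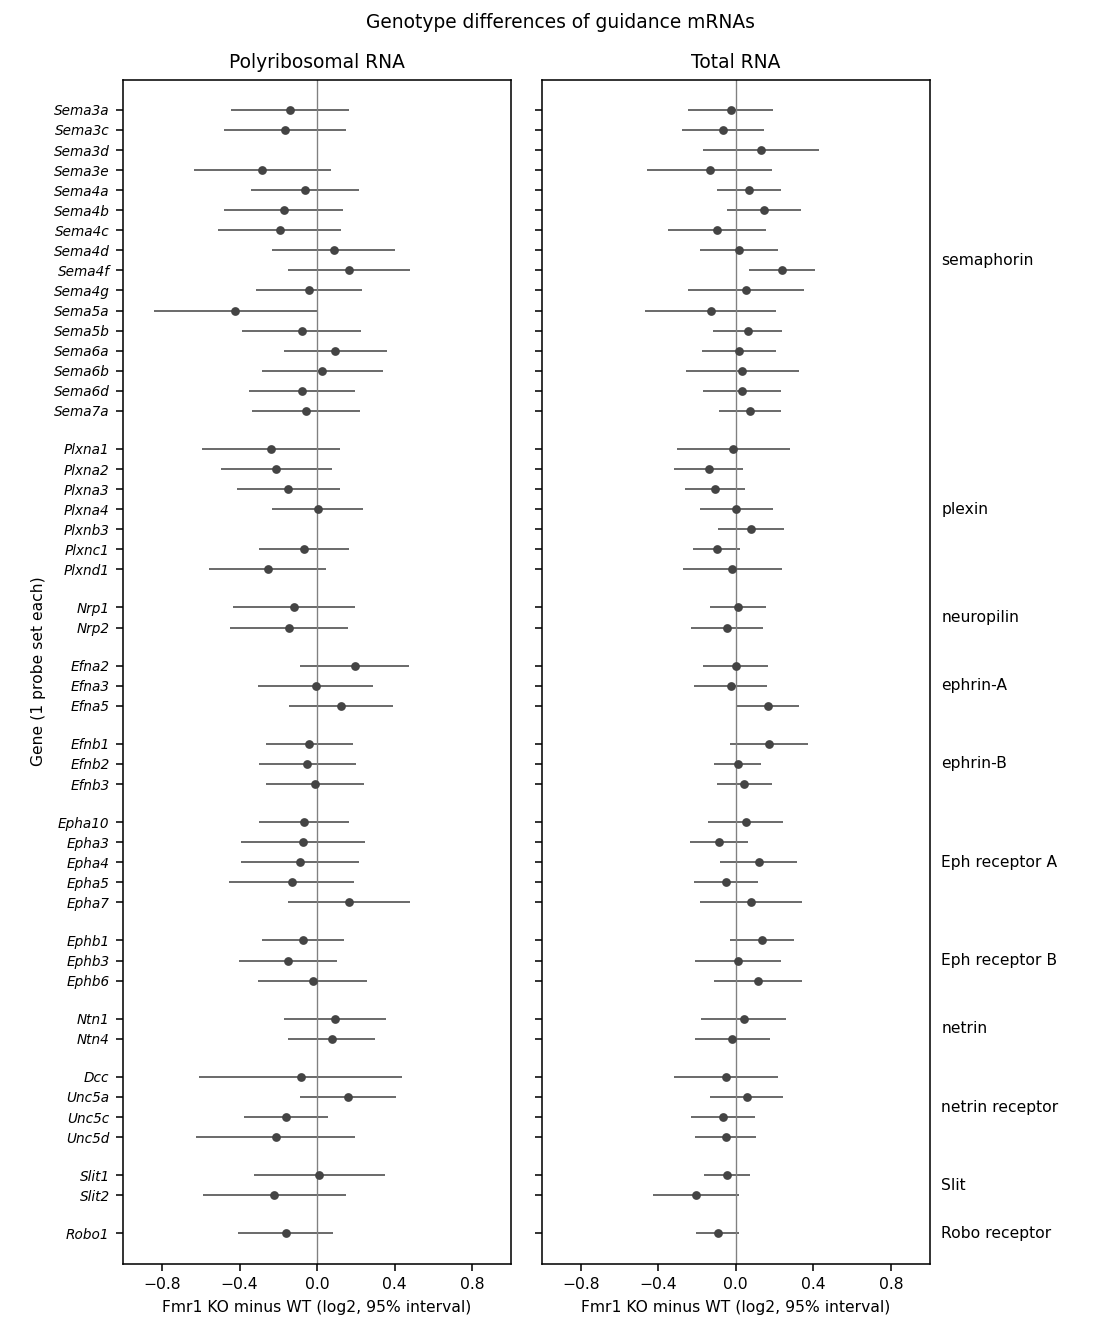
Fmr1 KO minus WT difference (log2, x axis) with its 95% interval from limma for each member (y axis, by family) in polyribosomal RNA (left) and total RNA (right). Points run from -0.42 to 0.19 on the left and from -0.21 to 0.24 on the right, the median half-width of the intervals is 0.29 and 0.19, and Sema3d and Plxnb3 were too dim to be tested on the left.

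The third question joins both: whether a lysate's polyribosome difference depended on genotype. Of 48 members 0 passed, as did 0% of all genes, and 2 had an unadjusted p under 0.05, against 2.34% of all genes. The members' values ran from -0.32 to 0.20, with a median of -0.09 against 0.02. Of these, 35 of 48 were below 0, against 4334 of 9956, or 43.5%, of all genes. The median half-width of the intervals was 0.30, again without adjustment over probe sets, so a call needed a larger difference than the interval alone implies.

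Sema4b had polyribosome differences of 0.42, 0.52 and 0.96 (lowest, median and highest) in the WT lysates and -0.04, 0.21 and 0.78 in the Fmr1 KO lysates. The ranges overlapped, and the difference between genotypes was -0.32 (SE 0.14, unadjusted p = 0.0426, limma adjusted p = 0.999). Efnb1 had 0.33, 0.43 and 0.53 in WT and 0.05, 0.18 and 0.41 in Fmr1 KO, overlapping in part, a difference of -0.21 (SE 0.10, unadjusted p = 0.0484). The 2 other Efnb1 probe sets gave -0.02 and -0.05. Epha4 had -0.60, -0.50 and -0.24 in WT and -0.83, -0.65 and -0.50 in Fmr1 KO, a difference of -0.21 (SE 0.11), while its other probe sets gave -0.12 to 0.03. A dimmer Plxna2 probe set had fitted polyribosome differences of -0.01 in WT and -0.52 in Fmr1 KO. Its difference between genotypes was -0.51 (SE 0.20) and did not pass, and the brightest Plxna2 probe set gave -0.07.

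The wider pathway was read from lists of genes outside the families above, which were also chosen with earlier results of these data known. Of 26 tested co-receptors and other guidance cues, 4 (15.4%) were higher and 11 (42.3%) lower in WT polyribosomal RNA, against 37.5% and 28.4% of all genes. The same counts were found in Fmr1 KO, against 38.7% and 28.2% of all genes. The list's median in WT was -0.18, against 0.09 for all genes. The lowest were Flrt3 (-1.02) and Flrt2 (-0.97), adhesion proteins that bind Unc5 receptors, followed by Gpc1 (-0.71), a glypican that binds Slits, and the Wnt receptor Ryk (-0.66). The highest were Vangl2 (0.79), a planar polarity protein, Dscam (0.69), a netrin receptor, Flrt1 (0.60) and Lingo1 (0.27), a partner of the Nogo receptor.

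Of 51 intracellular signalling genes tested, 17 (33.3%) were higher and 7 (13.7%) lower in WT, against 37.5% and 28.4% of all genes, with a median of 0.12 against 0.09. In Fmr1 KO 18 (35.3%) were higher and 9 (17.6%) lower, against 38.7% and 28.2% of all genes. Among those lower were Limk1 (-1.71), the kinase that inactivates cofilin, Evl (-1.20), an actin-binding protein, and the adaptor Gipc1 (-0.44). The largest rises were Rnd1 (0.91), a small GTPase that binds plexins, the kinase Fyn (0.83), and the exchange factors Farp2 (0.79) and Vav2 (0.77). In both genotype comparisons and in the comparison of lysate differences, 0 genes of either list were called with limma, and at most 1 gene of a list had an unadjusted p under 0.05 in any of the 3.

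Marker lists were read between the RNA kinds as well, where 37.5% of all genes were higher and 28.4% lower in WT. Both arrays of a lysate came from the same extract. Of 9 excitatory neuron markers 2 were higher and 1 lower, of 8 interneuron markers 2 were higher and 3 lower, and of 2 microglial markers tested 1 was lower. Both meningeal and choroid plexus markers tested and 2 of 4 markers of other brain regions were higher. In WT, 3 of 6 oligodendrocyte lineage markers were higher and 1 lower, and their summed level ran from 11.37 to 11.95 in total and from 11.83 to 12.69 in polyribosomal RNA. Endothelial and pericyte markers were higher for 2 of 3, with sums of 7.69 to 8.06 and 8.11 to 8.93. The other 5 endothelial and pericyte markers on the array stayed below the level limit. Astrocyte markers were higher for 3 of 8 and lower for 1, with sums of 12.55 to 12.96 and 12.56 to 13.36. The part of these cells in the members' polyribosome differences was not tested.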

How the data were processed

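Members and gene lists were chosen with earlier results of these data known. The deposited log2 values were made by the authors with GCRMA, per the submitters' processing notes. Its version, and whether all arrays were normalized together, are not given in the sources used here. GCRMA subtracts an estimated background, so differences of dim probe sets may be understated, and levels of different genes were not compared. The annotation gave 1 symbol for 34945 of 45037 probe sets. A comparison took in probe sets that reached a log2 value of 4 in 6 or more of its arrays. The test was limma's two-sided moderated one (version 3.58.1, under R 4.3.3, with lmFit then eBayes), adjusted by Benjamini-Hochberg over all 17687 to 18544 probe sets of a comparison, with a threshold of 0.05. The lysate was a block between RNA kinds, and the genotype test of lysate differences used the 12 polyribosomal minus total values. A gene was counted by its probe set with the highest mean over 24 arrays. A fold is 2 to the power of the fitted difference.

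Per-array values were given for the 5 largest called rises and falls in WT and for the 3 smallest p-values in each genotype comparison and in the comparison of lysate differences. Listed genes outside the families were named for the largest called changes in WT, up to 4 each way, and 1 such gene is not reported here. After removing group means, the lowest and highest correlation between WT and Fmr1 KO arrays of equal replicate number were 0.133 and 0.532 for total RNA, and -0.14 and 0.625 for polyribosomal RNA. Between the RNA kinds of a lysate they were 0.021 and 0.525 (WT), and 0.156 and 0.474 (Fmr1 KO). The study used littermate pairs, and the labels do not tie the number to them. The lysates are separate pools of mice, and the number of arrays limits the precision. Alternatives covered the level limit, normalization, the variance prior, the choice of probe set, the block and leaving out each replicate. The scripts were tested on simulated data. Figures used matplotlib 3.10.9 in Python 3.11.15.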

Additional observations from a re-analysis of the deposited data

Results flagged for a closer look

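Of 68 groups of 6 arrays examined for the 17 genes given by array, 2 held an array far from the others, where chance gives about 1 in 20 groups. Both were the lowest array of Fmr1 KO total RNA, replicate 5. Epha4 read 10.21 there, against 10.53 to 10.66 in the other 5 arrays of the group. Sema3a read 6.11 there, against 6.60 to 6.77. The Fmr1 KO polyribosome differences of both genes kept their calls without that replicate, at -0.62 for Epha4 and -1.15 for Sema3a.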

How the results depend on the processing

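The counts of called members stayed within 1.5 times the reported ones under every alternative run. In WT 28 calls became 23 (level limit of 5) to 31 (mean of a gene's probe sets), and 24 to 29 without any one replicate. In Fmr1 KO 28 calls became 20 to 31, and 24 to 29 without any one replicate, of which 4 to 9 were higher. With the level limit of 5, 4 members were higher and 16 lower in Fmr1 KO. Without the lysate block WT had 28 calls, 27 of them among those reported, and Fmr1 KO had 24 (6 higher, 18 lower). Fmr1 KO minus WT gave 0 calls in polyribosomal RNA, in total RNA and in lysate differences under each alternative, the replicate block included. The block left 3, 6 and 0 members with an unadjusted p under 0.05 in these 3 comparisons, and without replicate 4 there were 3 in polyribosomal RNA and 8 in lysate differences. Among called values 1 sign turned: Sema6a in Fmr1 KO was 0.062 with the mean of its probe sets. Values that had not passed also turned, as Plxna3 (0.14 in WT, 0.050 in Fmr1 KO) and Sema5a in WT (-0.17) did with that mean, and others near 0 under other settings. The cause of these changes was not tested. Quantile normalization or centring moved Ntn1 (0.25 and 0.23) and Efnb3 in WT past the threshold and Sema6b (-0.23 and -0.25) out of it. Limits are the 6 pooled lysates per genotype, dim probe sets near the level limit, and probe sets of 1 gene that disagree.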
